A study of Mus musculus with 29 samples.

Results

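The genes described here are 10 that skeletal muscle uses in fast-twitch fibres to build the contractile apparatus and to move calcium: Tnnt3, Tnni2, Tnnc2 and Tpm1 of the thin filament, the myosin light chains Mylpf and Myl1, Actn3 of the Z-disc, and Pvalb, Atp2a1 and Casq1 of calcium handling. They were taken by symbol from the 22537 gene symbols of the count table, and all 10 had enough counts to be tested at both old ages. The counts are of poly-A RNA from male C57BL/6 mice, taken from the tibialis anterior (TA), a fast muscle of the lower hindlimb that was used whole. Adult mice of 6 months (6m, n = 7) were compared with older mice of 24 months (24m, n = 7) in a first sequencing run, and with elderly mice of 28 months or more (28m, n = 8) in a second run, for which new libraries of the same 7 adult mice were made. The 29 libraries therefore came from 22 mice, each mouse a separate animal of the colony, and all mice had gone through the same series of physical tests before the muscle was taken. A whole muscle holds fibres together with vessels, nerve, connective tissue and other cells, so fewer fast fibres and less RNA of a gene per fibre cannot be told apart.

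In a muscle fibre, calcium released from the sarcoplasmic reticulum binds troponin C, and the troponin complex then moves tropomyosin on the actin filament so that myosin can pull. Fast and slow fibres use different genes for most of these parts. Tnnc2 encodes the calcium-binding subunit of fast fibres, Tnni2 the inhibitory subunit, and Tnnt3 the subunit that ties the complex to tropomyosin, of which Tpm1 encodes a form used in fast and cardiac muscle. Mylpf and Myl1 encode the regulatory and the essential light chain that sit on the neck of fast myosin, and Actn3 encodes the actinin that crosslinks actin at the Z-disc of the fastest fibres. Atp2a1 encodes the pump SERCA1 that returns calcium to the reticulum, Casq1 the protein calsequestrin that stores it there, and Pvalb encodes parvalbumin, a soluble buffer that speeds relaxation.

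Sequences upstream of a start site are shown for 3 members as examples of the outcomes at 28m. Mylpf rose most, Pvalb is 1 of 5 members that were called higher until a trend with gene length was removed, and Casq1 is 1 of 3 that were not called before that removal. They are the 250 bases before a RefSeq start on GRCm38.p6, and they were taken from the 4 of 8 start windows, found for 7 of the 10 genes, in which no annotated exon lies. The fourth, a second start of Pvalb inside the gene, is not printed. Motifs were searched on both strands, and capitals mark the E-box CANNTG, the letters that factors such as MyoD bind, and the MEF2 motif. The Mylpf window, chr7:127211358-127211607 on the plus strand, lies within the span of the annotated gene, between exons of a longer transcript.
Mylpf: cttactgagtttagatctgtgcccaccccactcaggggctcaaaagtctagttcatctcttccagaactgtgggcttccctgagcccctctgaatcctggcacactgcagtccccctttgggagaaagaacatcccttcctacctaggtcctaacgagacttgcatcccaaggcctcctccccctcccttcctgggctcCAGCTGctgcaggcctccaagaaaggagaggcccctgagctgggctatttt
The Pvalb window, chr15:78206401-78206650 on the minus strand, lies directly before the annotated gene.
Pvalb: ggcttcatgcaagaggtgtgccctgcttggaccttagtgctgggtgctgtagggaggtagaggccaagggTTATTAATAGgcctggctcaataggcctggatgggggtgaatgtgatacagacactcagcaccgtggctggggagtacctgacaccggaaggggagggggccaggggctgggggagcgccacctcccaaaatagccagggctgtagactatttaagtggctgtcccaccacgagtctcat
The Casq1 window, chr1:172219896-172220145 on the minus strand, also lies upstream of the annotated gene.
Casq1: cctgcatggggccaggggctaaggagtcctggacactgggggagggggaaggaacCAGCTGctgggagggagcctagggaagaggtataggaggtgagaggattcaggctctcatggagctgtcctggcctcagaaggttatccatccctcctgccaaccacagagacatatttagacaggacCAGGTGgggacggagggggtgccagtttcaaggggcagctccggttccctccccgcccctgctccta
Counted from the start site, the E-box of Mylpf began at base -51, those of Casq1 at -195 and -67, and the MEF2 motif of Pvalb at -180. No marked motif overlapped another. Over 32536 mouse promoter windows of the same length, 66.19% held an E-box and 2.89% a MEF2 motif.

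The libraries held between 17633475 and 33499162 counts on genes, with a median of 24250878, and the 10 genes took between 9.21% and 17.1% of them. Every member had at least 35508 counts in every library, so counting error is small beside the differences between libraries. Whether the tissue was fast muscle was checked with Ckm, Acta1, Myh4, Myh1 and Tnnt3, whose summed level was between 99883 and 167100 CPM in the 29 libraries, where CPM stands for counts scaled to a common library size. Some libraries stood apart from the others of their age. For each library, the deviation of every other gene from the mean of the 6m libraries of its run was regressed on the log2 of its exonic length, and the slope gives the change in log2 level per doubling of length. It was between -0.017 and 0.022 in the second-run 6m libraries, and below 0 in all 8 libraries at 28m, from -0.496 in replicate 7 to -0.053 in replicate 8. In the first run it was -0.487 in 24m replicate 4 and -0.264 in 6m replicate 4, and between -0.070 and 0.101 in the other 12 libraries. The second library of that same 6m mouse had a slope of 0.0035. Libraries with a slope below -0.2, a limit chosen after the values were seen, were 28m replicates 1, 2, 3, 5 and 7, 24m replicate 4 and first-run 6m replicate 4, and results are given below with and without them. The RNA quality of single libraries was not used here.

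At 6m the 10 genes differed widely in level per length of mRNA. Between mice, the coefficient of variation of a member was between 3.84% and 10.9% in the second-run libraries and between 12.9% and 25.9% in the first-run libraries of the same mice, which include replicate 4. In the 6m libraries of the second run, the 3 most abundant per kilobase of exon were Atp2a1 with 11589 ± 445 CPM per kilobase (SD, n = 7), Tnnt3 with 11210 ± 576 and Tnnc2 with 10610 ± 697, and the ranges of these neighbours overlapped. Pvalb (6181 ± 558), Mylpf (5444 ± 498) and Tnni2 (4950 ± 267) followed, again with overlapping ranges between neighbours. Then came Actn3 (3372 ± 209) and Myl1 (3253 ± 181), whose ranges overlapped, and Tpm1 (2373 ± 128) and Casq1 (1239 ± 136), each apart from the gene before it. With the length of the longest transcript in place of all exons, Tnnt3 stood alone at the top with 16446 ± 845 CPM per kilobase, and Tpm1, whose exons sum to 6485 bases but whose longest transcript has 2890, rose to 5324 ± 288. The order between genes therefore depends on the transcript that is assumed, and comparisons below are made gene by gene between libraries, in CPM.

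**Figure D1:**
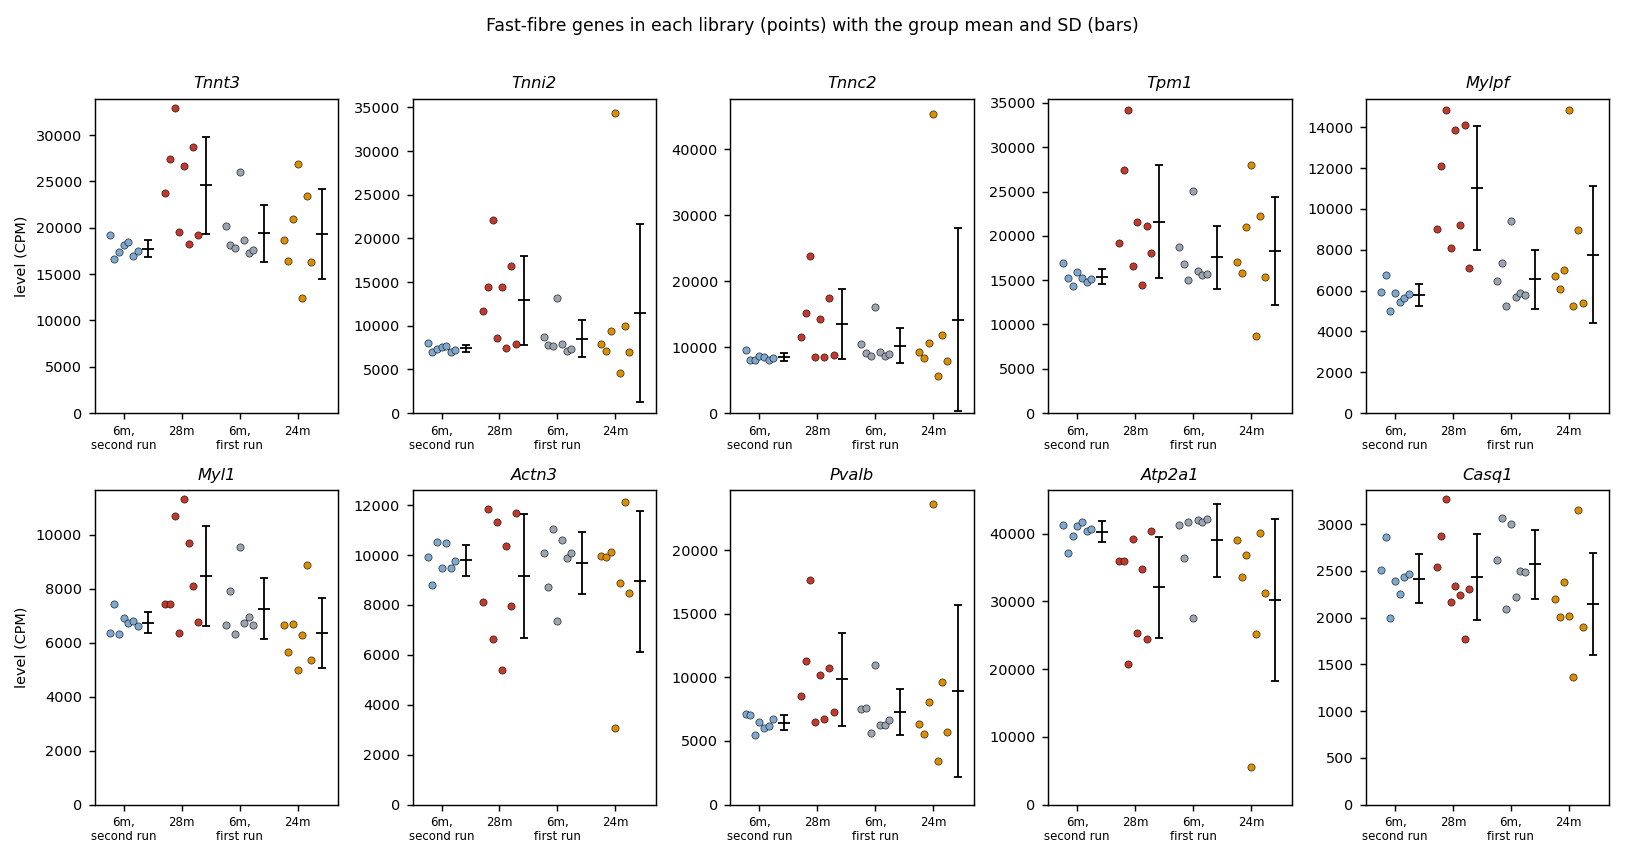
Level of each of the 10 genes in each of the 29 libraries, in CPM, with each library as a point and the group mean and SD as a bar. The 6m libraries of the second run lie close together, the 28m libraries spread upward in 7 genes and downward in Atp2a1, and 1 library at 24m lies far from the others in Tnni2, Tnnc2, Pvalb, Actn3 and Atp2a1.

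At 28m, 7 of the 10 genes were higher than at 6m and none was lower (edgeR, quasi-likelihood F test, Benjamini-Hochberg over 12994 genes, threshold 0.05). Of all genes tested, 24.3% were higher and 22.9% lower. The genes that rose were Mylpf, Tnni2, Tnnc2, Pvalb, Tpm1, Tnnt3 and Myl1, that is all members of the thin filament, both light chains and the calcium buffer. The calcium pump Atp2a1, the calcium store Casq1 and the Z-disc gene Actn3 did not pass the test. The median log2 fold change of the 10 genes was 0.48, beside 0.01 for all genes tested.

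Among the troponins, Tnni2 (chr7:142441808-142444410, plus strand of GRCm38, as for all positions here) changed most. Its level at 6m was between 6952 and 8071 CPM with a median of 7380, and at 28m between 7400 and 22069 with a median of 13061. Of the 8 libraries at 28m, 6 lay above all 7 at 6m, and the highest, replicate 3, was at about 3 times the lowest, replicate 6. The log2 fold change was 0.80 ± 0.20 (SE), with an adjusted p of 0.0054 by edgeR.

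Tnnc2 (chr2:164777161-164779967, minus strand) lay between 7981 and 9612 CPM at 6m, with a median of 8385, and between 8447 and 23842 at 28m, with a median of 12886. The libraries at 28m fell apart: replicates 1, 2, 3, 5 and 7 were above all 6m libraries, at 11573 CPM or more, and replicates 4, 6 and 8 were between 8447 and 8784, within the range at 6m. This gave a log2 fold change of 0.67 ± 0.20 (adjusted p = 0.0126 by edgeR), and the call was lost when all 29 libraries shared 1 estimate of dispersion (0.70, adjusted p = 0.082). An exon overlap of 592 bases with Ube2c on the other strand makes the counts of Tnnc2 uncertain to that extent, since the strand setting of the counting is not stated in the sources used here.

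Tnnt3 (chr7:142498836-142516009, plus strand), which lies close to Tnni2 on the chromosome, was between 16602 and 19198 CPM at 6m (median 17452) and between 18260 and 32885 at 28m (median 25201). Only replicate 6 at 28m was not above all 6m libraries. Its log2 fold change was 0.47 ± 0.12, the smallest of the troponins, with an adjusted p of 0.0071 by edgeR.

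Tpm1 (chr9:67022590-67049406, minus strand) was between 14377 and 16969 CPM at 6m (median 15217) and between 14477 and 34166 at 28m (median 20153), with 6 of 8 libraries at 28m above all at 6m. The log2 fold change was 0.49 ± 0.15 (adjusted p = 0.0163 by edgeR). Tpm1 is also transcribed in smooth muscle and other cells, with different exons, and counts per gene do not separate these forms.

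The regulatory light chain gene Mylpf (chr7:127208890-127214298, plus strand), whose upstream sequence is printed above, was the member that rose most. It was between 5014.5 and 6741 CPM at 6m, with a median of 5813, and between 7114 and 14861 at 28m, with a median of 10636. Every library at 28m was above every library at 6m, which held for no other member and for 5.70% of all genes tested. The log2 fold change was 0.93 ± 0.16, a fold of 1.91 (adjusted p = 0.00065 by edgeR), and it passed the test in all 15 fits that left out 1 library, with values between 0.87 and 1.01.

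The essential light chain gene Myl1 (chr1:66924295-66945404, minus strand) moved less. Its level was between 6334 and 7447 CPM at 6m (median 6738) and between 6359 and 11325 at 28m (median 7766), where replicates 3, 5 and 6 were highest. The log2 fold change was 0.33 ± 0.12, with an adjusted p of 0.0383 by edgeR. This call was lost in 9 of the 15 fits that left out 1 library, without 28m replicate 3, 5 or 6 or without 6m replicate 1, 3, 4, 5, 6 or 7, with values between 0.26 and 0.33. It was also lost with limma-voom (0.30, adjusted p = 0.051) and with no filter on low counts in edgeR (0.32, adjusted p = 0.080).

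Actn3 (chr19:4861216-4877909, minus strand) spread in both directions. It was between 8794 and 10534 CPM at 6m (median 9749) and between 5401 and 11842 at 28m (median 9234), with 3 libraries at 28m above and 4 below all those at 6m. The log2 fold change was -0.09 ± 0.15 (adjusted p = 0.62 by edgeR), and between -0.15 and -0.0068 with 1 library left out.

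Of the calcium genes, the buffer gene Pvalb (chr15:78191114-78206400, minus strand) was higher at 28m. It was between 5487.5 and 7128 CPM at 6m (median 6466) and between 6503 and 17671 at 28m (median 9350), and 6 of 8 libraries at 28m were above all at 6m. It rose by a log2 fold change of 0.62 ± 0.18 (adjusted p = 0.0126 by edgeR), and the call was lost when all 29 libraries shared 1 estimate of dispersion (0.65, adjusted p = 0.068).

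The pump gene Atp2a1 (chr7:126445858-126463108, minus strand), the most abundant member in CPM, pointed the other way. It was between 37103 and 41667 CPM at 6m (median 40696) and between 20691 and 40323 at 28m (median 35399), with 6 of 8 libraries at 28m below all at 6m, among them replicates 3, 5 and 7 at 25298 CPM or less. Its log2 fold change of -0.33 ± 0.14 just missed the threshold, with an adjusted p of 0.0560 by edgeR. It passed without 28m replicate 4 or without 28m replicate 8, at -0.37 and -0.38, and with limma-voom and DESeq2. Its exons overlap those of Rabep2 on the other strand over 763 bases.

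The store gene Casq1 (chr1:172209894-172219868, minus strand) had overlapping ranges at both ages, wider at 28m. It was between 1994 and 2867 CPM at 6m (median 2438) and between 1767 and 3266 at 28m (median 2322), and the log2 fold change was 0.01 ± 0.12 (adjusted p = 0.94 by edgeR).

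**Figure D2:**
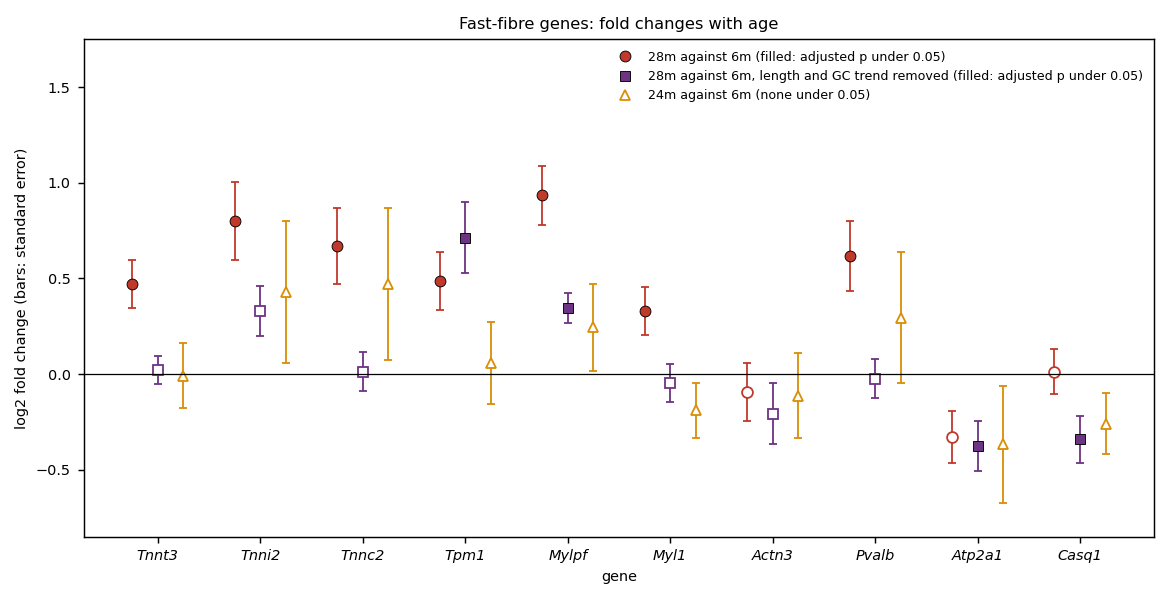
Log2 fold change of each gene with its standard error, at 28m against 6m, at 28m once the trend of each library with exonic length and GC content had been taken out, and at 24m against 6m. Filled symbols have an adjusted p under 0.05. The 7 genes called at 28m drop to 2, Tpm1 and Mylpf, after the removal, and Atp2a1 and Casq1 are then called lower, while no gene is called at 24m.

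The changes at 28m went with the length of the genes. The 5 members with the fewest bases of exon (Tnnc2 with 800, Pvalb with 1041, Mylpf with 1062, Tnni2 with 1497 and Tnnt3 with 1583) had log2 fold changes between 0.47 and 0.93. The next 4, Casq1 (1951), Myl1 (2074), Actn3 (2901) and Atp2a1 (3477), had 0.01, 0.33, -0.09 and -0.33, all below those 5, while Tpm1, the longest by exons, was at 0.49. The other genes of the table showed a relation of the same direction. Across 12862 genes, members left out, the log2 fold change at 28m fell with exonic length (Spearman rho = -0.539, a description across genes of the same libraries). Among them, 69.9% of genes below 1000 bases were higher at 28m, 58.6% of those from 1000 to 2000, 32.8% of those from 2000 to 4000 and 14.4% of those from 4000 to 8000. The median log2 fold change in these 4 bands was 0.68, 0.49, 0.18 and -0.12.

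**Figure D3:**
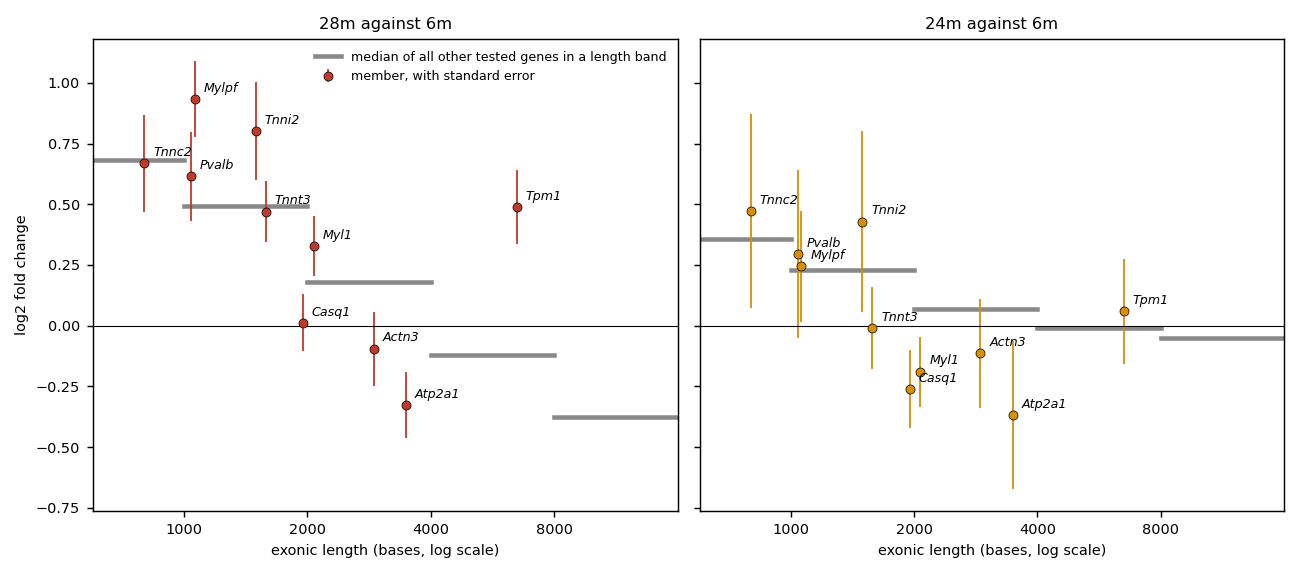
Log2 fold change of each member with its standard error against its exonic length on a log scale, at 28m (left) and 24m (right). Grey lines are the medians of all other tested genes in 5 bands of length, of which the longest is drawn to 16 kilobases only. At 28m, Tnnc2, Pvalb and Tnnt3 lie near the line of their band, Mylpf, Tnni2, Myl1 and Tpm1 above it, and Casq1, Actn3 and Atp2a1 below it.

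When a smooth function of exonic length and GC content was taken out of each library, 4 members were called at 28m, 2 higher and 2 lower, where 18.9% of all genes tested were higher and 18.8% lower. Tpm1 (log2 fold change 0.71 ± 0.18, adjusted p = 0.0073 by edgeR) and Mylpf (0.34 ± 0.08, adjusted p = 0.0034) were still higher. With 6485 bases of exon, Tpm1 was treated as a long gene, and its value went up from 0.49 with the removal. Atp2a1 (-0.38 ± 0.13, adjusted p = 0.0336) and Casq1 (-0.34 ± 0.12, adjusted p = 0.0386) were lower. Tnni2 was at 0.33 ± 0.13 and missed the threshold (adjusted p = 0.0578), and Tnnt3 (0.02), Tnnc2 (0.01), Pvalb (-0.02) and Myl1 (-0.05) were near 0. Tpm1 and Mylpf were also called, at 0.39 and 0.27, when the length of the longest transcript was used, while Atp2a1 (-0.27) and Casq1 (-0.29) then were not. The longest transcript of Tpm1 has 2890 bases, so the size of its change depends on the length that is assumed. A removal of this kind takes away any change that goes with gene length, whatever its source, and what lies behind the trend was not tested.

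The libraries with a steep slope were picked by how short and long genes other than the members differ, with a limit set after values were seen. Since most members that rose are short, the fold changes without these libraries are not independent of that choice. Without 28m replicates 1, 2, 3, 5 and 7, which leaves 3 libraries at 28m against 7 at 6m, only Mylpf was called, with a log2 fold change of 0.50 (adjusted p = 0.0052 by edgeR), where 10.5% of all genes tested were higher. The other members that had risen were then between 0.03 for Tnnc2 and 0.18 for Myl1, with Tpm1 at 0.098, and Atp2a1 was at -0.07. Set against the first-run libraries of the same 6m mice, Mylpf was again the only member called (0.79), where 1559 of 12984 genes tested were higher. With first-run 6m replicate 4 left out of that comparison, 5 members were called higher, namely Mylpf, Tnni2, Pvalb, Tnnc2 and Tnnt3, where 19.1% of all genes were higher.

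**Figure D4:**
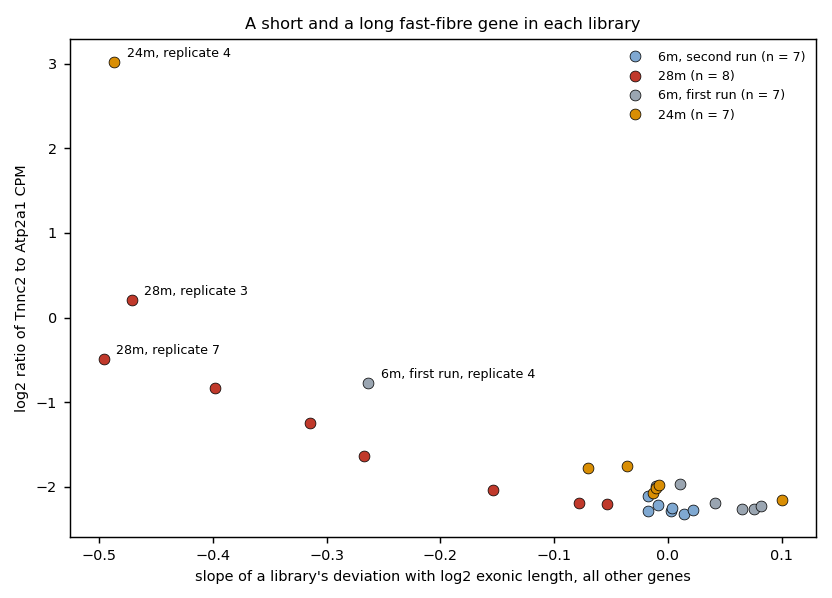
Log2 ratio of the CPM of Tnnc2, the shortest member by exons, to that of Atp2a1, the most abundant member in CPM, in each library (vertical), against the slope of that library with log2 exonic length over all other genes (horizontal). The 22 libraries with a slope above -0.2 lie between -2.32 and -1.76, and the 7 libraries with a steeper slope lie higher, up to 3.02 in 24m replicate 4.

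The ratio of Tnnc2 to Atp2a1 in a library shows the same pattern within single samples, for this 1 pair of members. Tpm1, longer by exons (6485 bases) than Atp2a1 (3477), rose at 28m as Tnnc2 did. The log2 ratio of Tnnc2 to Atp2a1 was between -2.32 and -2.10 in the second-run 6m libraries. At 28m it was between -2.20 and 0.20, with a median of -1.44. At 28m it was highest in replicate 3 (0.20), then replicates 7 (-0.49), 5 (-0.83), 2 (-1.25) and 1 (-1.64), and between -2.20 and -2.04 in replicates 4, 6 and 8. Replicates 1, 2, 3, 5 and 7 are those with the steep slopes. The part of the length trend in the ratio was not tested.

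At 24m, none of the 10 genes was called by edgeR's quasi-likelihood test, and none had an unadjusted p under 0.05, where 1546 of the 13103 genes tested had one. Of all genes, 0.0611% were higher and 0.0229% lower. DESeq2 and limma-voom called none of the 10 either. The median log2 fold change of the members was 0.02, beside 0.03 for all genes.

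One library lay far from the others at 24m. In replicate 4, Tnnc2 was at 45349 CPM, while the other 6 mice at 24m were between 5665 and 11859 and the 6m mice between 8714 and 16023. Tnni2 in that library was at 34312 CPM, beside 4637 to 10023 in the other 24m mice, and Pvalb at 23643, beside 3415 to 9650. Mylpf was at 14838 CPM, beside 5256 to 8967. Atp2a1 and Actn3 were low in the same library. Atp2a1 was at 5595.5 CPM, while the other 6 were between 25145 and 40108, and Actn3 was at 3062 CPM, beside 8475 to 12137. Myl1, at 4994 CPM, was the lowest of its group, and Tpm1, at 27995 CPM, the highest. The library had the highest total of all, 33499162 counts.

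The log2 fold changes at 24m moved with that library. They were 0.47 ± 0.40 for Tnnc2, 0.43 ± 0.37 for Tnni2 and 0.30 ± 0.34 for Pvalb, and without 24m replicate 4 they were -0.19, -0.15 and -0.17. Mylpf was at 0.24 ± 0.23 and without it at 0.01. Atp2a1 was at -0.37 ± 0.31 and without it at -0.18. Tpm1 (0.06 ± 0.22), Tnnt3 (-0.01 ± 0.17), Actn3 (-0.11 ± 0.22), Myl1 (-0.19 ± 0.14) and Casq1 (-0.26 ± 0.16) completed the list, none past the threshold. DESeq2 replaced the Tnnc2 count of this library as an outlier and gave -0.19. Another library, 24m replicate 5, was lowest of its group in Tnnt3, Tnni2, Tnnc2, Tpm1, Mylpf, Pvalb and Casq1, with Tpm1 at 8699 CPM and Tnnt3 at 12437. Its slope with length was the most positive of all libraries, 0.101.

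Whether the effect at 28m differed from that at 24m was tested in a model of all 29 libraries, and no member passed (edgeR, Benjamini-Hochberg over 13455 genes, with 0% of all genes called). At an unadjusted p under 0.05 there were 1611 of the 13455 genes and 3 members, Myl1 with a difference of 0.54 ± 0.19 in log2 fold change, Mylpf with 0.71 ± 0.29 and Tnnt3 with 0.50 ± 0.21. Limma-voom called none, with or without the mouse as a block. Without 24m replicate 4, 4 members were called, where 12.3% of all genes were, with differences of 0.61 for Tnnt3, 0.99 for Tnni2, 0.89 for Tnnc2 and 0.96 for Mylpf. When 6m replicate 4 of the first run was left out with it, none was called, and the share of all genes called in that fit is not given here. A rise at 28m and no call at 24m is thus not shown to be a difference between the ages.

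The 6m mice, sequenced in both runs, show how far a member moves between libraries of 1 mouse. With the mouse as a block, no member passed the test between the runs, and 0% of all genes did (edgeR, 12884 genes). None of the 10 had an unadjusted p under 0.05, where 1052 of the 12884 genes had one. In 6 of the 7 mice, the first-run library differed from the second-run library by between -0.03 and 0.20 in log2 CPM over all 10 genes, with CPM scaled separately for each run. The first-run library was the higher in 7 of 7 mice for Tnnt3, Tnni2, Tnnc2 and Tpm1, and in 5 or 6 of 7 for the other members. For Tnnc2 it was higher by between 0.10 and 0.20 in those 6 mice. In the mouse of 6m replicate 4 the difference was 0.89 for Tnnc2 (16023 CPM in the first run and 8665 in the second), 0.80 for Tnni2, 0.77 for Pvalb, 0.68 for Mylpf, 0.66 for Tpm1, 0.52 for Tnnt3, 0.47 for Myl1 and 0.32 for Casq1. It was -0.37 for Actn3 and -0.58 for Atp2a1 (27501 and 41119 CPM). The muscle of 1 animal thus gave 2 libraries that differed in these genes in the same direction as 28m from 6m, and for 9 of the 10, all but Mylpf, the log2 difference was at least as large as the fold change at 28m. Without that mouse, Tnnc2 was called between the runs, at -0.08 in the second run over the first, where 1.44% of all genes were.

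The fast myosin heavy chains, the motors on which Mylpf and Myl1 sit, did not rise with the light chains. Of the 3 genes, Myh4, which encodes the chain of the fastest fibres (IIb), was lower at 28m, with 65126 ± 2765 CPM at 6m (SD, n = 7) and 46609 ± 12019 at 28m (SD, n = 8), a log2 fold change of -0.48 ± 0.14 and an adjusted p of 0.0119 by edgeR. It was below all 6m libraries in 7 of 8 mice. Myh1 (IIx) was at -0.31 ± 0.17 (adjusted p = 0.14 by edgeR) and Myh2 (IIa) at -0.37 ± 0.32 (adjusted p = 0.35). After the trend with length was removed, Myh4 was at -0.31 and still passed (adjusted p = 0.0444 by edgeR), where 18.8% of all genes were lower. These genes have between 6016 and 7137 bases of exon. Without the removal, 22.9% of all genes tested were lower at 28m. Of genes other than the members with 4000 to 8000 bases, 27.8% were. At 24m none was called, with Myh4 at -0.47 ± 0.20, Myh1 at -0.21 and Myh2 at 0.39, which turned to -0.10 without 24m replicate 5, where Myh2 was at 2819 CPM. Myh1 was at -0.08 without 24m replicate 4 and at -0.33 without replicate 5, and Myh4 at -0.37 and -0.38.

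Shares among the myosin heavy chain genes were also computed. Of the counts on Myh4, Myh1, Myh2 and the slow gene Myh7, Myh4 held 79.7% ± 2.31 (SD, n = 7) in the second-run 6m libraries and 77.3% ± 7.22 (SD, n = 8) at 28m, with a range of 66.9% to 85.5% at 28m. Myh1 held 19.3% ± 2.14 and 21.6% ± 6.75, and Myh2 1.01% ± 0.29 and 1.06% ± 0.63. The means differed by less than the spread between the mice at 28m. At 24m, Myh4 held between 57.7% and 85.8%, and the lowest share was that of replicate 5, where Myh2 reached 5.25%.

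Each member except Pvalb was paired with a counterpart listed for slow fibres, and most of these counterparts were scarce in TA. Actn2 was not, with a mean of 1050 CPM at 6m, beside 49.4 for Atp2a2, the next highest. It is thus not read as a gene of slow fibres only. Of the 10 genes listed as slow (9 counterparts and Myh7), 4 were higher at 28m and none lower, with a median log2 fold change of 0.43, where 24.3% of all genes were higher. The 4 have between 1041 and 3600 bases of exon, and of genes other than the members 58.6% of those with 1000 to 2000 bases and 32.8% of those with 2000 to 4000 were higher. Those called were Myl2 (1.48 ± 0.37), the slow regulatory light chain, Tnni1 (1.31 ± 0.46), Tnnc1 (1.16 ± 0.28) and Tnnt1 (0.997 ± 0.32), the slow troponins, with adjusted p between 0.0042 and 0.0270 by edgeR. Their means were between 1.55 and 4.62 CPM at 6m and between 4.35 and 9.26 at 28m, small beside their fast partners. Myl3 (0.58, adjusted p = 0.0708), Tpm3 (0.29, 0.0602), Actn2 (0.28, 0.21), Casq2 (0.27, 0.33), Myh7 (0.24, 0.63) and Atp2a2 (-0.04, 0.91) did not pass. After the trend with length was removed, Tnni1 (1.21), Myl2 (1.07), Tnnc1 (0.54) and Tpm3 (0.48) were called. At 24m none was called, with log2 fold changes between 0.17 for Actn2 and 1.77 for Tnni1. Without 24m replicate 4, Myl2 was the highest at 0.98, Tnni1 was at 0.68, Tnnt1 at 0.51 (1.51 with it), Tnnc1 at 0.49 (1.35 with it) and Myl3 at 0.37 (0.98 with it). Without 24m replicate 5, Actn2 was at -0.08 and Atp2a2 at 0.15 (0.51 with it).

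The ratio of a fast gene to its slow partner in a library compares the libraries without a common scale. The log2 ratio of Tnni2 to Tnni1 was between 9.52 and 12.32 at 6m in the second run (median 11.97) and between 8.72 and 11.75 at 28m (median 11.08). For Tnnc2 to Tnnc1 it was between 11.32 and 12.70 at 6m (median 12.07) and between 11.25 and 11.95 at 28m (median 11.53). Both ranges overlapped, and so did those of the other 7 pairs, and no test was run on them. The medians at 28m were lower than at 6m for 8 of the 9 pairs and higher for Tpm1 to Tpm3 (9.66 beside 9.55). At 24m, the median of Myl1 to Myl3 was 6.66, beside 7.50 in the first-run 6m libraries, with the lowest value, 4.07, in replicate 4. These ratios are not corrected for length. The trend with length differed between libraries, so it can shift the ratio of partners of unlike length, such as Tnni2 (1497 bases of exon) and Tnni1 (3600). Its part in the lower medians at 28m was not tested.

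**Figure D5:**
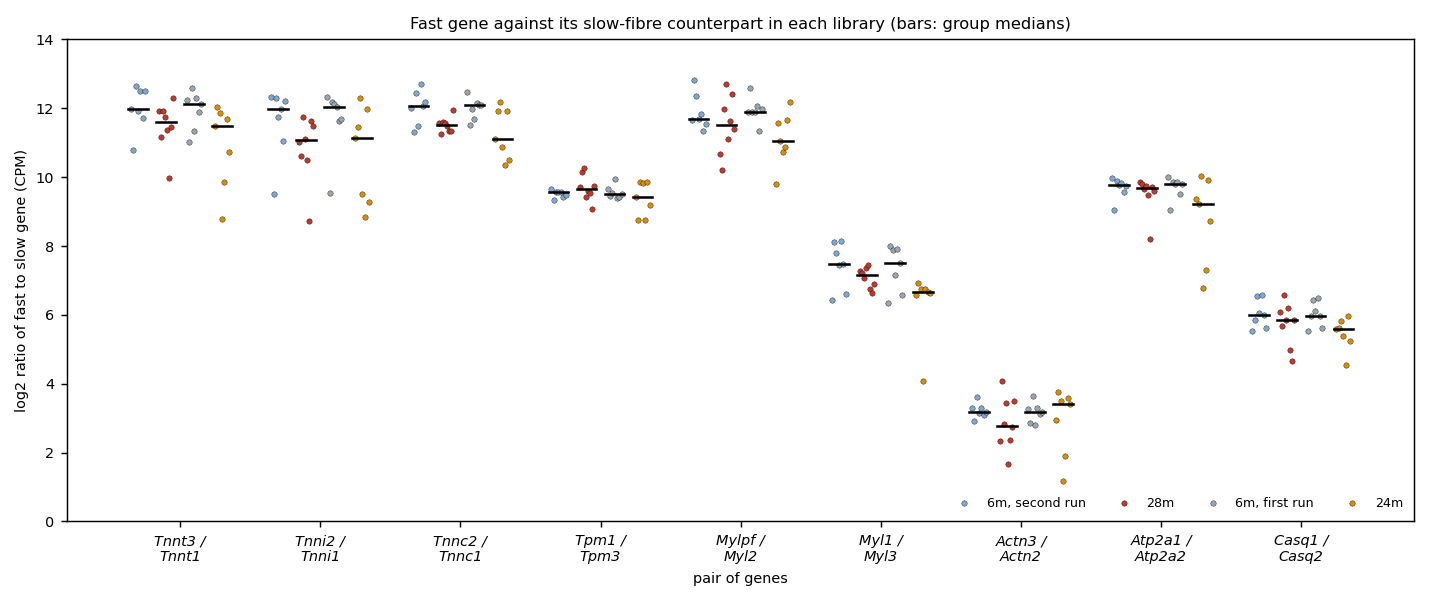
Log2 ratio of the CPM of each fast gene to that of its slow-fibre counterpart in each library, for 9 pairs and 4 groups, with group medians as bars. All ranges at 28m overlap those at 6m, and the medians at 28m lie below those at 6m in all pairs but Tpm1 to Tpm3. Actn2 was abundant in this fast muscle, so Actn3 to Actn2 is not read as fast against slow fibres.

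Other sarcomere genes were called in shares to be read beside the 24.3% of all genes that were higher and the 22.9% that were lower. Of 7 other genes of fast fibres, 1 was lower at 28m and none higher (median log2 fold change 0.05), and that was Myh13, a myosin heavy chain known from eye muscle, with 8.73 CPM at 6m and 4.49 at 28m (-0.96 ± 0.24). Of 12 sarcomere genes that all skeletal fibres use, 4 were higher and 3 lower (median 0.07). Tcap, which caps titin at the Z-disc and has 948 bases of exon, was higher by 1.08 ± 0.17 and in 8 of 8 mice above all at 6m, while Neb, which encodes the giant thin-filament protein nebulin, was lower (-0.75 ± 0.20). After the trend was removed, Tcap was at 0.54 and still called, and Neb at -0.24 was not.

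Of 17 other genes of calcium release and uptake that could be tested, 6 were higher and 6 lower at 28m. Among all genes tested, 24.3% were higher and 22.9% lower. The 17 genes have between 1249 (Cacng1) and 21838 (Ryr1) bases of exon. Of genes other than the members, 58.6% of those with 1000 to 2000 bases were higher, and 50.8% of those with 8000 or more were lower. Sln, which encodes sarcolipin, an inhibitor of the pump that Atp2a1 encodes, had the largest change, a log2 fold change of 4.29 ± 0.86 (adjusted p = 0.0016 by edgeR), from 2.35 ± 2.75 CPM at 6m to 46.7 ± 72.7 at 28m. In 7 of 8 mice at 28m it was above all mice at 6m. Cacng1, a subunit of the voltage sensor, was higher by 0.93 ± 0.09 and in all 8 mice, and Ryr1, the release channel, was lower by 0.74 ± 0.20. With the trend removed, Sln was at 3.87 and Cacng1 at 0.47, both still called, and Ryr1 at -0.14 was not. In all, 5 of the 17 were then higher and 4 lower, where 18.9% of all genes tested were higher and 18.8% lower. At 24m none of these genes was called, with Sln at 3.79 ± 1.02 (adjusted p = 0.20) and Cacng1 at 0.84 ± 0.23 (adjusted p = 0.21), the latter above all 6m mice in all 7.

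Of 17 transcription factors and cofactors known to shape the fast fibre programme that were tested, 10 were lower at 28m and none higher, with a median log2 fold change of -0.47. Among all genes tested 22.9% were lower, and among those other than the members 27.8% of genes with 4000 to 8000 bases of exon and 50.8% of the longer ones were lower. The 10 include Mef2a (-1.12 ± 0.44), Sox6 (-0.98 ± 0.22), which keeps slow genes off in fast fibres, and Mef2d (-0.92 ± 0.31). These 3 have 14681, 14832 and 5985 bases of exon, and with the trend removed Sox6 (-0.58) and Mef2d (-0.78) were called and Mef2a (-0.84) was not. In all, 9 were then lower and 1 higher, Mef2c at 0.49, named here after its value was seen. Of all genes tested, 18.8% were lower and 18.9% higher with the trend removed. At 24m none of 18 was called.

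Markers of other cells and of nerve loss moved at 28m as well, and their part in the changes of the 10 genes was not tested. Their counts are to be read beside the 24.3% of all genes tested that were higher and the 22.9% that were lower. Of 10 genes that rise after denervation, 6 were higher and none lower, Chrng (3.52) and Gadd45a (2.11) among them, and their summed level was between 69.9 and 162 CPM at 6m and between 103 and 633 at 28m. All 5 endothelial markers were lower, led by Kdr (-1.29), Flt1 (-0.93) and Cdh5 (-0.87), with sums of 366 to 419 CPM at 6m and 174 to 307 at 28m. These 5 genes have between 4203 and 13504 bases of exon. Of genes other than the members, 27.8% of those with 4000 to 8000 bases and 50.8% of the longer ones were lower. Of 5 fibroblast markers, 3 were lower (Col1a1, Col3a1 and Pdgfra), with sums of 515 to 2701 CPM and 295 to 1068. Of 5 smooth muscle markers, Rgs5 and Myh11 were lower and Tagln higher (263 to 317 CPM and 162 to 280). Fabp4 of 5 adipocyte and Scx of 5 tendon markers were higher, and Pax7 of 4 satellite cell markers was lower, while none of 3 immune markers nor the 1 erythrocyte marker tested passed. The summed levels were between 153 and 166 CPM at 6m and between 140 and 469 at 28m for adipocytes, and between 200 and 354 and between 116 and 358 for tendon. They were between 142 and 162 and between 95.8 and 243 for satellite cells, between 28.0 and 104 and between 42.3 and 406 for immune cells, and between 5.2 and 26.2 and between 3.7 and 24.0 for erythrocytes. The adipocyte sum was mostly Fabp4, with a mean of 149 CPM at 6m, beside 4.28 for Adipoq. The satellite cell sum was mostly Itga7, with 121 CPM at 6m, beside 2.36 for Pax7. Neither sum measures a number of cells. Cd3e, Calcr, Hba-a1 and Hba-a2 had too few counts to be tested. With the trend with length removed, Pecam1 of the endothelial markers, Col3a1 and Pdgfra of the fibroblast markers and Tagln were no longer called. At 24m no marker was called in any list.

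The genes whose deviations from the group means followed most closely the mean deviation of the 10 members, over the 29 libraries and among 12932 other genes, were Cib2 (Pearson r = 0.964), Capzb (0.960), Ldha (0.953), Tmem126a (0.949) and Arl3 (0.945). They were picked as the highest of many, the 29 libraries include 2 from each 6m mouse, and 24m replicate 4 lies far from the rest, so these values are a description. Exonic lengths of the 5 genes were between 1433 and 3310 bases.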

How the data were processed

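The authors sequenced poly-A RNA of whole TA as 75-base single-end reads (NextSeq550, bcl2fastq 2.20) and, per the labels, aligned them to mm10 with STAR 2.5.4b. The deposited values are whole read counts per gene symbol in 1 table of 29 columns, all mapped to a sample. The strand setting of the counting is not given in the sources used here. The second-run 6m columns are repeat libraries of the 7 first-run mice, and the labels' design text gives other group sizes for 24m and 28m than the sample labels, which were followed.

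Genes with low counts were dropped with filterByExpr, libraries scaled by TMM, and groups compared with edgeR 4.0.16 (R 4.3.3), quasi-likelihood F test, Benjamini-Hochberg over all genes tested, threshold 0.05. Each old group was set against the 6m libraries of its run, the runs with the mouse as a block. Same-mouse libraries deviated together in all 7 pairs (correlations 0.218 to 0.814). CPM used TMM-scaled library sizes. Length and GC content came from GENCODE vM21 (GRCm38), which matched 20205 symbols directly and 1880 by synonym, with 452 unmatched, and their trend (mgcv 1.9.3) was removed per library as offsets. Alternatives were DESeq2 1.42.0, limma 3.58.1, other scalings and filters, and each library left out. Leaving out libraries with a slope below -0.2, alone or from the other run's 6m libraries, and using the longest transcript were chosen after seeing the data. The scripts were tested on simulated data. All 10 members, the fast myosin heavy chains, the slow counterparts, up to 3 called genes of each other list by size of change and the 5 genes most alike were named. Some results that this rule covers are not reported here. Members and lists were chosen with earlier results of these data known.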

Additional observations from a re-analysis of the deposited data

Results flagged for a closer look

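In each of the 40 sets of values formed by a member and a group of libraries, the highest and the lowest library were compared with the nearest of the others, and 14 sets held a library far from the rest (Dixon's criterion, which chance meets in about 1 group in 20). Of these, 11 came from only 2 libraries. In 24m replicate 4, Tnni2 (34312 CPM), Tnnc2 (45349 CPM), Mylpf (14838 CPM) and Pvalb (23643 CPM) were far above the other mice of that age, and Actn3 (3062.4 CPM) far below them. In the first-run library of 6m replicate 4, Tnnt3 (26070 CPM), Tnni2 (13202 CPM), Tnnc2 (16023 CPM), Tpm1 (25103 CPM) and Pvalb (10991 CPM) were far above the other 6m mice of the run, and Atp2a1 (27501 CPM) far below them. Pvalb in 28m replicate 3 (17671 CPM) was far above the other mice at 28m. In the second run, Tnnc2 in 6m replicate 1 (9612.2 CPM) was above and Atp2a1 in 6m replicate 2 (37103 CPM) below the other 6m mice, by smaller steps. The causes were not tested.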

How the results depend on the processing

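At 28m, 7 members and 6140 genes were called. These numbers were 1 and 2981 with the 6m libraries of the other run, 1 and 2684 without the steep libraries, and with the length and GC trend removed 4 and 4898 by exons and 2 and 4237 by longest transcript. The number of members ran from 6 to 8 and of genes from 5297 to 6688 when 1 library was left out. With 1 dispersion for all groups, 5 members and 5365 genes were called. At 24m, 0 members were called in every alternative and in every fit without 1 library, and 11 genes. DESeq2 called 215 genes there, 1 dispersion for all groups 152, a minimum of 10 counts in every library 4, the other run's 6m libraries 46, the trend removed 19 or, by longest transcript, 21, and leaving out the steep libraries 121, with 4 to 30 when 1 library was left out. Of the members' log2 fold changes under the other settings, 102 of 140 at 28m and 117 of 130 at 24m kept their direction and side of the threshold.

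Signs turned as follows. At 28m, the trend removed gave -0.047 for Myl1, -0.024 for Pvalb and -0.34 for Casq1, and by longest transcript -0.065 for Tnnt3, -0.030 for Tnnc2, -0.23 for Myl1, -0.022 for Pvalb and -0.29 for Casq1. Without the steep libraries Actn3 was 0.19 and Casq1 -0.10. Casq1 was -0.0011 with limma-voom, -0.0061 with total counts and -0.036 with the other run's 6m libraries. At 24m, Tnnt3 was 0.027 with total counts, 0.0034 with the count minimum, 0.00036 with shared dispersion and 0.078 with the other run. Without the steep libraries Tnni2 was -0.013, Tnnc2 -0.042 and Pvalb -0.040. Tnnc2 was -0.19 with DESeq2. The trend removed gave -0.0039 for Mylpf and -0.097 for Pvalb, and by longest transcript -0.032 for Tnnc2, -0.028 for Mylpf and -0.084 for Pvalb. For the difference between the ages, Actn3 was -0.055 with the trend removed and -0.061 without the steep libraries, and Atp2a1 -0.061 without them. The causes were not tested.

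With 1 library left out, Casq1 at 28m ran from -0.053 to 0.074. At 24m, Tnnt3 ran from -0.11 to 0.079, Tnni2 from -0.15 to 0.57, Tnnc2 from -0.19 to 0.62, Tpm1 from -0.075 to 0.18, Actn3 from -0.20 to 0.036 and Pvalb from -0.17 to 0.44. Myl1 ran from -0.29 to -0.11 and Casq1 from -0.38 to -0.17 at 24m, with no change of sign. For the difference, Actn3 ran from -0.11 to 0.12 and Atp2a1 from -0.12 to 0.13, with 0 to 4 members called. Between the runs, Myl1 ran from -0.075 to 0.014 and Casq1 from -0.068 to 0.00038, with 0 to 1 called. With the mouse as a replicate block (limma-voom), 0 members were called for the difference, and without the block 0 between the runs. Counts of the members were high in every library, so counting error is a small part of their spread. Spread between mice and between libraries of 1 mouse were separated only for the 6m mice.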
